A study of Homo sapiens with 74 samples.

Results

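Chromosome 19q carries long, dense runs of zinc finger genes, and the account here covers those whose symbol is ZNF followed by a number. Members were taken by symbol and position alone: placed on chromosome 19 only, with the midpoint of their annotated span at or beyond 26 Mb (GRCh38), in the RNA-seq gene count tables of the study. The rule gave 183 of the 28131 genes in each table, out of 580 numbered ZNF genes in all, and no expression value entered it.

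The study asked how the DOT1L complex acts on transcription in human cells. It deposited RNA-seq of K562 and HEL, which are established human erythroleukaemia cell lines. The K562 groups were a wild type control, a DOT1L-/- line (DOT1L KO) and an ENL-/- line (ENL KO). The HEL groups were a control and a DOT1L knockdown (DOT1L KD). DOT1L is the histone methyltransferase that places methyl groups on lysine 79 of histone H3, and ENL (gene symbol MLLT1) is a YEATS-domain protein that reads acylated histones in elongation complexes with DOT1L partners. Whether a knockout line was 1 clone or a pool, and which agent made the knockdown, are not given in the sources used here. Control and knockout libraries therefore differ in whatever else separates the lines, and replicates may share a culture, so p-values measure the spread between these libraries.

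Most zinc finger genes of the arm encode proteins with a row of C2H2 zinc fingers behind a KRAB domain. The KRAB domain recruits TRIM28 (KAP1), which brings SETDB1 and heterochromatin protein HP1 and leads to trimethylation of lysine 9 of histone H3, often over transposable elements. The genes arose by tandem duplication, lie in clusters, and are themselves partly covered by that mark, placed in part through ZNF274, a member described below.

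Levels are given as CPM, the count divided by the TMM-scaled library size and put on the usual common scale. K562 libraries held 15404944 to 29236703 counted fragments and HEL libraries 12151495 to 12811688 counted reads. The deposited K562 control columns 2 and 3 were identical in all 28131 genes and were counted as 1 library, which leaves 2 control, 3 DOT1L KO and 3 ENL KO libraries, beside 2 and 2 in HEL. DOT1L mRNA averaged 263 ± 9.84 CPM in K562 control (SD, n = 2) and 182 ± 5.15 in DOT1L KO (n = 3), MLLT1 mRNA 216 ± 3.56 in control and 154 ± 1.92 in ENL KO (n = 3), and HEL DOT1L mRNA 92.4 ± 7.12 and 29.6 ± 0.641 (n = 2 each). Summed over 7 erythroleukaemia line markers, all of them detected, the level was 5109 to 5505 CPM in K562 control, 6297 to 6748 in DOT1L KO, 5449 to 5566 in ENL KO, 5310 to 5413 in HEL control and 7449 to 8124 after knockdown. A 3-gene monocyte list measured 33.2 to 36 CPM in K562 control, 292 to 323 in DOT1L KO and 19.5 to 20.6 in ENL KO. Its gene CSF1R, a defining monocyte gene, was at or under 3 counts in control and ENL KO. In DOT1L KO no gene of that list was. A 3-gene T cell list measured 51.46 to 53.14 CPM in control, 15.9 to 20.3 in DOT1L KO and 61.5 to 72.3 in ENL KO. Its gene CD2 was at or under 3 counts in all 3 groups. A 3-gene fibroblast list measured 1.89 to 2.05 CPM in K562 control, 12.8 to 16.1 in DOT1L KO and 0.580 to 1.02 in ENL KO, with PDGFRA and THY1 at or under 3 counts in all 3 groups. The 3-gene epithelial list measured 120 to 121 CPM in control, 78.1 to 85.2 in DOT1L KO and 92.4 to 98.6 in ENL KO. Its gene KRT5 was at or under 3 counts in all 3 groups. For a 3-gene B cell list the values were 2.46 to 2.51, 1.51 to 1.55 and 0.716 to 0.973 CPM in the same order. There MS4A1 was at or under 3 counts in all 3 groups. The part of these shifts in the results below was not tested. The labels name a sequencing lane for control and DOT1L KO libraries and none for ENL KO libraries, so a batch and the ENL KO genotype cannot be told apart.

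By the RefSeq gene type, 162 members were coding, 11 antisense, 6 pseudogenes and 3 readthrough transcripts, and 1 had no matched type. Of the 183, 7 had midpoints at 34 to 36 Mb, 30 at 36 to 38 Mb (36182060 to 37779590), 23 at 43 to 45 Mb (43533188 to 44500523), 48 at 51 to 54 Mb (51571237 to 53580269) and 57 at 56 to 59 Mb (56087366 to 58489533), and 18 were scattered elsewhere on the arm. In K562, 153 members passed the filter on low counts and were tested. The other 30 never exceeded 17 counts in a library. In HEL, 150 were tested and the other 33 never exceeded 14 counts. Both lines could test 139 members, 14 were tested in K562 only, 11 in HEL only and 19 in neither. ZNF536, a repressor of neuronal genes, and the readthrough ZNF816-ZNF321P had 0 counts in every library of both lines. Exons of 29 members overlap another annotated gene, and close copies such as ZNF585A and ZNF585B, ZNF780A and ZNF780B or ZNF417 and ZNF587 can exchange reads, so values of single members of these pairs are less certain than those of the cluster.

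The promoter windows below show what the starts of the genes that turn up in the results look like. RefSeq (GRCh38.p14) gave a window for 155 members, from 250 bases before to 50 after the start, and only the bases before the start are printed. Capitals mark the ETS-family motif CCGGAAGT or its reverse complement, ACTTCCGG. The first 3 genes stood near 0 in K562 control and were higher in ENL KO, and the next 2 were lower in DOT1L KO. The last 2, from the 43 to 45 Mb cluster, were higher in both knockouts and hold no match in the stretch printed. ZNF226, of that cluster and also higher in both knockouts, does hold the motif, as do 5 of 19 windows there. The windows printed are examples and do not tie the motif to a response.
ZNF256 (chr19:57947707-57947956, minus strand): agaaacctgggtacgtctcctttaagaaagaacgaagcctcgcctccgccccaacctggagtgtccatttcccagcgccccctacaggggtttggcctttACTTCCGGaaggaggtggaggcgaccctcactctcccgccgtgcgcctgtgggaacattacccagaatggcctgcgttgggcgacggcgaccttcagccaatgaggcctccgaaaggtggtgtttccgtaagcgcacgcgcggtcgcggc
ZNF606 (chr19:58002821-58003070, minus strand): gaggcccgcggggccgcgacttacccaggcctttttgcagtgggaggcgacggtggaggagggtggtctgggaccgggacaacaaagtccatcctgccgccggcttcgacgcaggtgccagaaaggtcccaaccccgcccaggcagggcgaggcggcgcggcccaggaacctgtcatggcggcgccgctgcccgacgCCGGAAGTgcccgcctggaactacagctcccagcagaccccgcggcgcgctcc
ZNF568 (chr19:36916082-36916331, plus strand): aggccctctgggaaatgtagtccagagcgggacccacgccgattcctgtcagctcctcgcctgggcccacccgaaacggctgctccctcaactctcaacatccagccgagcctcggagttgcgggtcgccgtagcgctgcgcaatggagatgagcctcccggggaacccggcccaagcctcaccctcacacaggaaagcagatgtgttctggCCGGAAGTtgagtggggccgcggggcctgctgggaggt
ZNF585A (chr19:37172696-37172945, minus strand): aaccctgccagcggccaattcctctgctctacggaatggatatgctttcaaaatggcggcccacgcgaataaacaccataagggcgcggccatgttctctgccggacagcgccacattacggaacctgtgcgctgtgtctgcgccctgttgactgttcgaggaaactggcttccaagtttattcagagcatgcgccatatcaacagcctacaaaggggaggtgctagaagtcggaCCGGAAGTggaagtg
ZNF274 (chr19:58182811-58183060, plus strand): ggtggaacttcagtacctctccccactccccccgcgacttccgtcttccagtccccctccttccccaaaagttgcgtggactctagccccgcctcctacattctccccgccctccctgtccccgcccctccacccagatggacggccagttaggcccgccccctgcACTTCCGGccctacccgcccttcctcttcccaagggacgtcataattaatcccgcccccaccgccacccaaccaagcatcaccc
ZNF45 (chr19:43935283-43935532, minus strand): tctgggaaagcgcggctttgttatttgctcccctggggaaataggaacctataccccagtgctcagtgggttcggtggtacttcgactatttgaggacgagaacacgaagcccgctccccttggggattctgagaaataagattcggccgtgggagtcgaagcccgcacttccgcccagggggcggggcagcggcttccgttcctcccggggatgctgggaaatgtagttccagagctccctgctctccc
ZNF284 (chr19:44071909-44072158, plus strand): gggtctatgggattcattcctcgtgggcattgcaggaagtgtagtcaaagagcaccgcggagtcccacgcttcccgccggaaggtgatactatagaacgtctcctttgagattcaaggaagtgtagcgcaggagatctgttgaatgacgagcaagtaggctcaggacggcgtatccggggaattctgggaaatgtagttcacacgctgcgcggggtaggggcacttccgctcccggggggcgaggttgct

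The ETS motif, chosen with the counts in view, stood on either strand in 43 of 155 member windows (27.7%), against 965 of 17162 windows of all genes (5.62%) and 888 of 10463 windows of genes tested in K562 (8.49%). Its share differed along the arm. In the 56 to 59 Mb cluster 25 of 51 windows held it (49.0%), against 5 of 28 at 36 to 38 Mb, 5 of 19 at 43 to 45 Mb, 5 of 37 at 51 to 54 Mb and 2 of 15 scattered genes. Among zinc finger genes of 19p the count was 1 of 73 (1.37%), and among those of other chromosomes 30 of 228 (13.2%). The windows of ZNF568 and ZNF829, which start next to each other on opposite strands (ZNF829 window chr19:36916292-36916541, minus strand), overlap at the motif end. A TATA box, TATAAA, stood in 1.94% of member windows, 9.80% of all windows and 5.80% of those of genes tested in K562. The SP1 motif GGGCGG was in 60.6%, 54.7% and 69.2%, the YY1 motif AAGATGGC in 7.10%, 3.64% and 5.26%, and the NRF1 motif in 3.23%, 1.70% and 2.37%, so that the SP1 share of members lay between the backgrounds. A match describes letters in a window, and neighbouring windows share ancestry through duplication.

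Member genes were low-abundance transcripts in both lines. The median level of tested members was 7.03 CPM in K562 control, against 23.6 CPM over all genes tested, and 10.7 against 29.7 CPM in HEL control. Per kb of exon, ZNF146, a zinc finger protein that lacks a KRAB domain, stood highest in both lines, at 42.8 ± 0.231 CPM per kb in K562 control (SD, n = 2) and 98.6 ± 2.4 in HEL control (n = 2). ZNF580, ZNF787, ZNF581 and ZNF444 followed in K562 control at 36.1 ± 0.623, 33.7 ± 3.45, 28.7 ± 1.54 and 26.1 ± 1.85 CPM per kb. ZNF580 and ZNF787, neighbours in this order, did not differ beyond the spread of ZNF787. In HEL control the order was ZNF146, then ZNF175 at 37.3 ± 0.402, ZNF581 at 24.1 ± 0.396, ZNF160 at 23.1 ± 1.13 and ZNF227 at 17.3 ± 0.0785 CPM per kb, and ZNF581 and ZNF160 did not differ beyond their spread.

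Some members were silent in one line and expressed in the other. At most 3 counts per K562 control library were seen for 11 members that reached at least 1 CPM in HEL control. ZNF302 had 0 counts in both K562 controls and averaged 27.2 ± 1.64 CPM in HEL control (SD, n = 2). ZNF667 averaged 22.5 ± 0.123 CPM in HEL control, ZNF382 13.0 ± 2.02 and ZNF256 13.0 ± 1.18, and the other 7 were ZNF470, ZNF773, ZNF606, ZNF836, ZNF547, ZNF471 and ZNF541. The reverse pattern held for 3 members of the 51 to 54 Mb cluster, ZNF702P at 12.6 ± 1.91 CPM in K562 control (n = 2), ZNF347 at 9.26 ± 0.0783 and ZNF818P at 1.24 ± 0.0182, each with at most 2 counts per HEL control library. The K562 table counts fragments and the HEL table reads, so these levels are set side by side with no test. The same rule was not applied to all genes, so the counts of 11 and 3 do not show a pattern particular to the members.

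**Figure D1:**
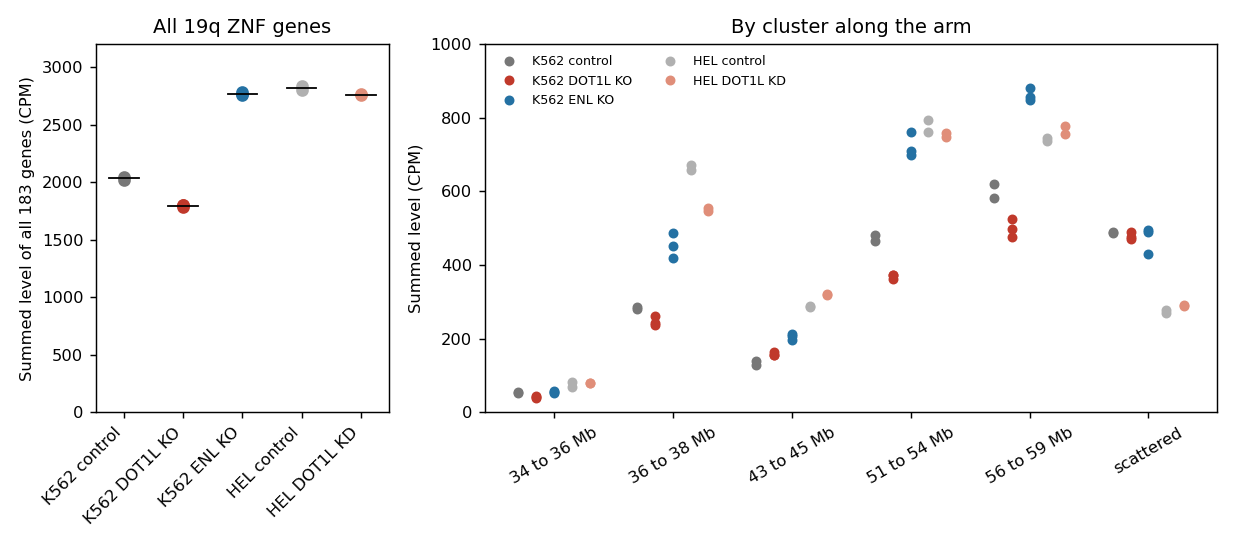
Summed CPM of all 183 members (left) and of each cluster (right); each point is a library and each black line on the left a group mean. The ENL KO libraries lie at 2755 to 2781 CPM, above the K562 controls at 2021 and 2043, and the DOT1L KO libraries lie below them at 1782 to 1799.

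The summed level of the 183 members was 2043 and 2021 CPM in the K562 control libraries, 1798, 1782 and 1799 CPM in DOT1L KO and 2755, 2766 and 2781 CPM in ENL KO. The 3 groups did not overlap. The number of members with at least 1 count was 164 and 166 in control, 161, 159 and 160 in DOT1L KO, and 175, 173 and 171 in ENL KO, although ENL KO replicate 3 was the shallowest K562 library. Over all genes the numbers were 16975 and 16977 in control, 17896 to 18243 in DOT1L KO and 15970 to 16481 in ENL KO. In HEL the sum was 2802 and 2833 CPM in control and 2757 and 2762 CPM after knockdown.

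The clusters did not move as one. At 51 to 54 Mb the K562 sums were 466 and 481 CPM in control, 362 to 373 in DOT1L KO and 698 to 760 in ENL KO, and at 56 to 59 Mb 581 and 619, 476 to 525 and 847 to 881. At 43 to 45 Mb both knockouts lay above control, with 128 and 138 CPM in control, 155 to 164 in DOT1L KO and 197 to 213 in ENL KO. The scattered members stayed close together, at 488 and 489 CPM in control, 472 to 490 in DOT1L KO and 431 to 494 in ENL KO, where replicate 3 was the lowest.

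Loss of ENL went with higher RNA from most clustered members. Against the K562 control, 113 of the 153 tested members rose and 3 fell in ENL KO (edgeR quasi-likelihood test, adjusted p under 0.05), with a median log2 fold change of 0.70; over all 14301 genes tested, 41.0% passed, 18.8% higher and 22.2% lower. Increases with a log2 fold change of at least 1 were seen in 51 members, against 2.89% of all genes. Every ENL KO library lay above every control library in 123 members, against 28.8% of all genes. Some of the 153 passed the filter on low counts only through the ENL KO libraries, where they were high. In a fit of the DOT1L KO and control libraries alone 136 members and 14149 genes in all were tested. The counts of increases therefore include members admitted by the group in which they rose. Of 143 members with a mean of at least 1 CPM over the HEL libraries, 134 passed the K562 filter. Of these, 102 rose and 3 fell, against 21.1% and 21.5% of all genes chosen that way. That filter used the ENL KO libraries too, so this choice does not remove such members.

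**Figure D2:**
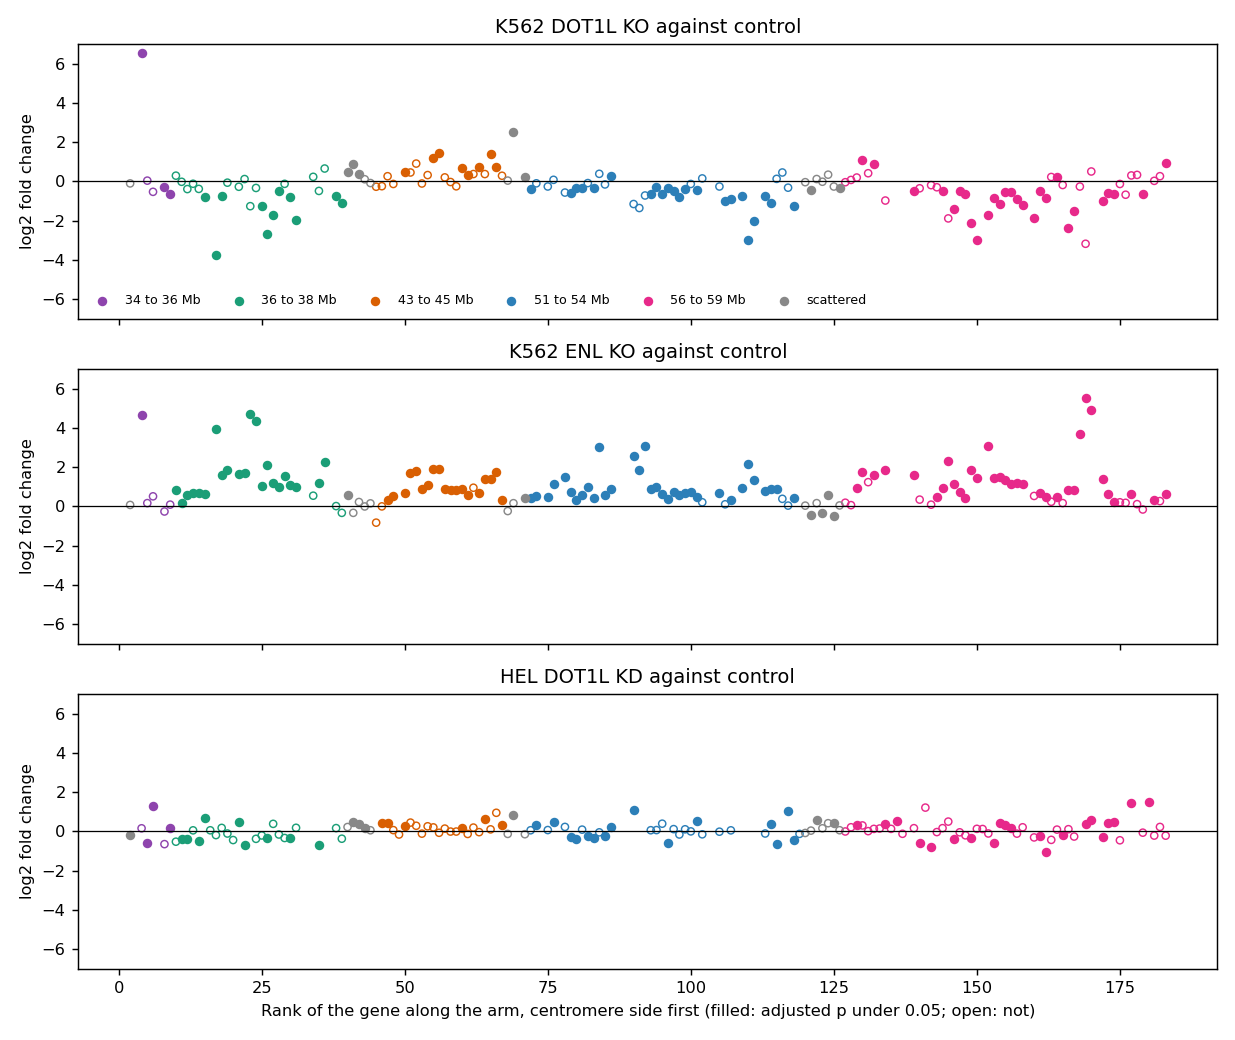
Log2 fold change of each tested member in order along the arm, for K562 DOT1L KO, K562 ENL KO and HEL DOT1L KD against their controls; filled points passed the adjusted p threshold of 0.05 and open points did not. Most members of the 36 to 38, 43 to 45, 51 to 54 and 56 to 59 Mb clusters lie above 0 in ENL KO, while in DOT1L KO the 43 to 45 Mb cluster lies opposite to the other 3; the ZNF302 value in K562 rests on a control with 0 counts.

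The increases lay in the 4 large clusters: 22 of 25 tested members at 36 to 38 Mb rose (median log2 fold change 1.11), 19 of 22 at 43 to 45 Mb (0.88), 34 of 38 at 51 to 54 Mb (0.69) and 34 of 47 at 56 to 59 Mb (0.81), and none of these 132 fell. No decrease among them passed an unadjusted p of 0.05 in edgeR or an adjusted p in DESeq2. Without the ENL KO libraries the filter admitted 20 members at 36 to 38 Mb and 22 at 43 to 45 Mb. It then admitted 33 at 51 to 54 Mb and 40 at 56 to 59 Mb. Outside them, 1 of 5 at 34 to 36 Mb, ZNF302, rose, and of 16 scattered members 3 rose and 3 fell, with a median of 0.06. Genes of other kinds inside the 4 clusters did not share the pattern to the same extent: of 59 with no zinc finger symbol, 18 rose and 9 fell (median 0.07), whereas 7 of 9 genes with another zinc finger symbol, such as HKR1 and ZIK1, rose. Zinc finger genes of 19p gave 31 higher and 3 lower of 71 (median 0.33), those of other chromosomes 51 and 47 of 246 (0.06), and 19q genes without a ZNF symbol 87 and 96 of 436.

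The largest ENL KO increases started from near silence. ZNF256 had 1 count in each control library, 0.0465 and 0.0473 CPM, and 2.66, 2.24 and 2.41 CPM in ENL KO. On the summed counts, 2 against 138, ENL KO was 52 times control, with an exact 95% counting interval of 14.1 to 434. ZNF606, next to it in the 56 to 59 Mb cluster, had 2 and 90 summed counts, a ratio of 33.9 with an interval of 9.12 to 284. These intervals cover counting error only. All ENL KO libraries lay above both controls for these genes, and both remained far below their HEL levels of 13.8 and 12.1 CPM and 7.75 and 7.22 CPM.

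At 36 to 38 Mb the same held for ZNF829, ZNF568 and ZNF461. ZNF829 measured 0.0930 and 0.189 CPM in control, 0.136, 0 and 0.0473 CPM in DOT1L KO and 3.09, 3.94 and 4.62 CPM in ENL KO (log2 fold change 4.72 ± 0.45 (SE), edgeR adjusted p = 2.24e-06). ZNF568, which starts beside it and whose mouse counterpart represses placental Igf2, measured 0.0930 and 0.189 CPM in control and 2.51, 2.92 and 3.45 CPM in ENL KO (log2 fold change 4.33 ± 0.40 (SE), edgeR adjusted p = 1.72e-06). ZNF461 measured 0.279 and 0.236 CPM in control and 3.82, 3.60 and 5.01 CPM in ENL KO (log2 fold change 3.96 ± 0.35 (SE), edgeR adjusted p = 1.02e-06). In each of the 3 genes the ENL KO libraries were separate from the other K562 libraries, and the control value rests on few fragments.

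Other members rose from a measurable level. ZNF772, at 56 to 59 Mb, measured 4.09 and 4.26 CPM in control and 16.5, 14.2 and 14.9 CPM in ENL KO (log2 fold change 1.87 ± 0.14 (SE), edgeR adjusted p = 1.91e-07). ZNF551 measured 18 and 19 CPM in control and 40.1, 39.3 and 42.3 CPM in ENL KO (log2 fold change 1.13 ± 0.08 (SE), edgeR adjusted p = 1.32e-07). ZNF850, at 36 to 38 Mb, measured 17.0 and 19 CPM in control and 63.0, 64.0 and 69.7 CPM in ENL KO (log2 fold change 1.87 ± 0.08 (SE), edgeR adjusted p = 1.50e-09). These libraries differed between groups by far more than within them. ZNF528 and ZNF665, both at 51 to 54 Mb, ZNF549 at 56 to 59 Mb and ZNF585A at 36 to 38 Mb completed the leading increases, with log2 fold changes of 2.55, 2.17, 3.08 and 2.1.

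Not every silent member responded. Of the 11 members silent in K562 control and expressed in HEL, several stayed at or close to the level of 3 counts per library in ENL KO. ZNF667, ZNF541, ZNF470, ZNF471 and ZNF382 averaged 0.178, 0.0970, 0.0646, 0.0596 and 0.0539 CPM there. ZNF302 also averaged only 0.140 CPM there, but with 0 counts in both controls it passed as higher (edgeR adjusted p = 0.0207), and no longer did so when either control library was left out. The members that fell in ENL KO were 3 scattered genes, ZNF580, ZNF579 and ZNF865. ZNF580 measured 56.2 and 57.6 CPM in control and 42.5, 47.0 and 30.2 CPM in ENL KO, with log2 fold change -0.50, and without replicate 3 it was -0.34; ZNF579 and ZNF865 went from -0.46 and -0.32 to -0.24 and -0.19 without that library. All 3 calls were lost without control replicate 2, and 1 remained without control replicate 1.

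**Figure D3:**
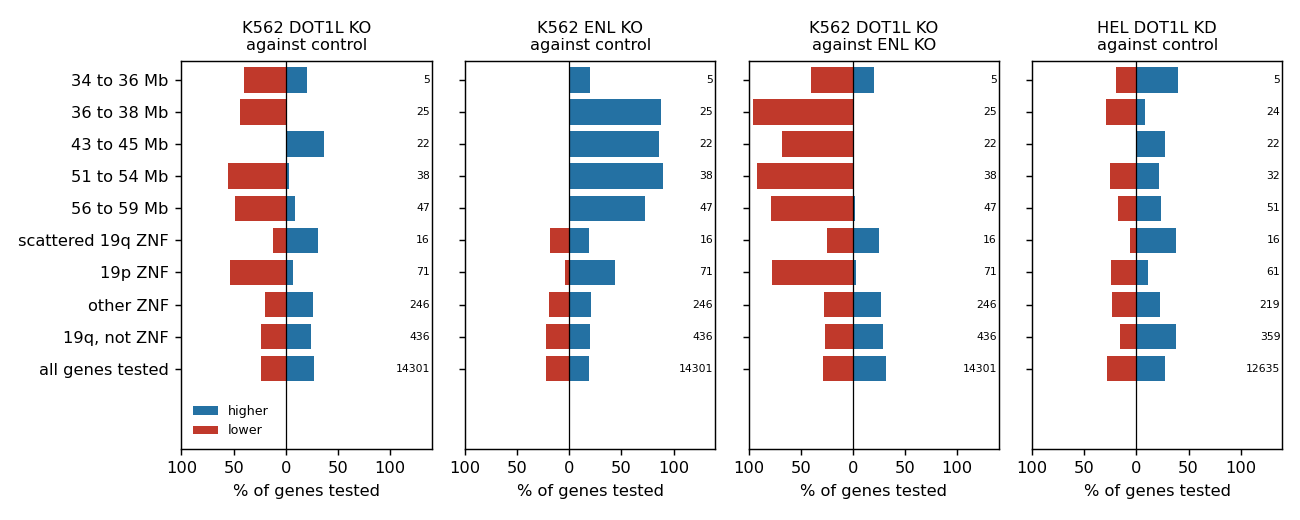
Share of tested genes that were higher (right, blue) or lower (left, red) at an adjusted p under 0.05, in each cluster of 19q members, in zinc finger genes of 19p and of other chromosomes, in 19q genes without a ZNF symbol and in all genes tested; the small number at the right is the number tested. The 4 large clusters stand at 72.3% to 89.5% higher in ENL KO, against 18.8% of all genes. Some of their members were tested in K562 only through the ENL KO libraries.

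Loss of DOT1L in the same line went with lower RNA from 3 clusters and higher RNA from 1. Against the same control libraries, 59 of 153 members fell and 19 rose in DOT1L KO (edgeR, adjusted p under 0.05; median log2 fold change -0.28); over all genes 51.1% passed, 24.2% lower and 26.9% higher. The share of members called, 78 of 153, was near that background; 38.6% of tested members were lower and 12.4% higher. By size, 19 fell with a log2 fold change of -1 or less, against 4.09% of all genes, and 6 rose with 1 or more, against 11.7%. Every DOT1L KO library lay below every control library in 81 members, against 32.8% of all genes. Some of the 153 passed the filter on low counts only through the ENL KO libraries: in a fit of the DOT1L KO and control libraries alone 136 were tested, 61 fell and 19 rose.

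In the 36 to 38 Mb cluster 11 of 25 tested members fell and none rose (median -0.49); no increase there passed an unadjusted p of 0.05 in edgeR or an adjusted p in DESeq2. At 51 to 54 Mb 21 of 38 fell and 1, ZNF480, rose (median -0.39), and at 56 to 59 Mb 23 of 47 fell and 4 rose (median -0.49). The ZNF480 call was lost without either control library, and 2 rather than 4 rose at 56 to 59 Mb without control replicate 2. In the 43 to 45 Mb cluster 8 of 22 rose and none fell, with a median of 0.35; 1 decrease passed an unadjusted p of 0.05 in edgeR and 0 passed in DESeq2, and without DOT1L KO replicate 1 there was 1 decrease at an adjusted p under 0.05. The 36.4% called higher there stand beside 26.9% of all genes, and the 3 members with a log2 fold change of at least 1 beside 11.7%. By counts the rise of that cluster was thus not far above the background. Called lower were 44.0% at 36 to 38 Mb, 55.3% at 51 to 54 Mb and 48.9% at 56 to 59 Mb, against 24.2% of all genes. The shares called at 43 to 45 and 36 to 38 Mb lay below the 51.1% of all genes. Of 16 scattered members 5 rose and 2 fell, and without control replicate 1 the counts were 2 and 1. The tilt was not particular to this arm: zinc finger genes of 19p gave 38 lower and 5 higher of 71 (median -0.45), while those of other chromosomes gave 50 lower and 63 higher of 246, and 19q genes without a ZNF symbol 104 and 104 of 436.

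ZNF585A and ZNF585B, neighbouring close copies at 36 to 38 Mb, were among the largest decreases. ZNF585A measured 1.77 and 3.22 CPM in control and 0.409, 0.304 and 0.473 CPM in DOT1L KO (log2 fold change -2.67 ± 0.31 (SE), edgeR adjusted p = 8.94e-06), and 10.9, 10.5 and 10.6 CPM in ENL KO. ZNF585B measured 7.63 and 7.57 CPM in control, 2.54, 2.36 and 2.13 CPM in DOT1L KO (log2 fold change -1.69 ± 0.13 (SE), edgeR adjusted p = 1.95e-07) and 16.4, 17.9 and 18.7 CPM in ENL KO. Control libraries lay between those of the knockouts in both copies, without overlap. ZNF420, known as a negative regulator of p53 in cell culture, also in this cluster, measured 8.93 and 7.95 CPM in control, 4.13, 2.97 and 3.69 CPM in DOT1L KO and 16.4, 19.8 and 16.3 CPM in ENL KO, and fell by 1.24 on the log2 scale in DOT1L KO.

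At 56 to 59 Mb ZNF772 fell to 1.18, 0.777 and 0.947 CPM in DOT1L KO (log2 fold change -2.13 ± 0.19 (SE), edgeR adjusted p = 7.89e-07) and ZNF551 to 7.86, 7.77 and 8.14 CPM (log2 fold change -1.23 ± 0.09 (SE), edgeR adjusted p = 7.31e-08). Their control libraries are given above, and both genes had control between DOT1L KO and ENL KO. ZNF417, ZNF548 and, at 51 to 54 Mb, ZNF813 had log2 fold changes of -1.51, -1.41 and -1.26. Among members at lower levels, ZNF461 had 0 counts in 2 of the 3 DOT1L KO libraries, and ZNF419 measured 1.86 and 1.51 CPM in control and 0.409, 0.0676 and 0.189 CPM in DOT1L KO.

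**Figure D4:**
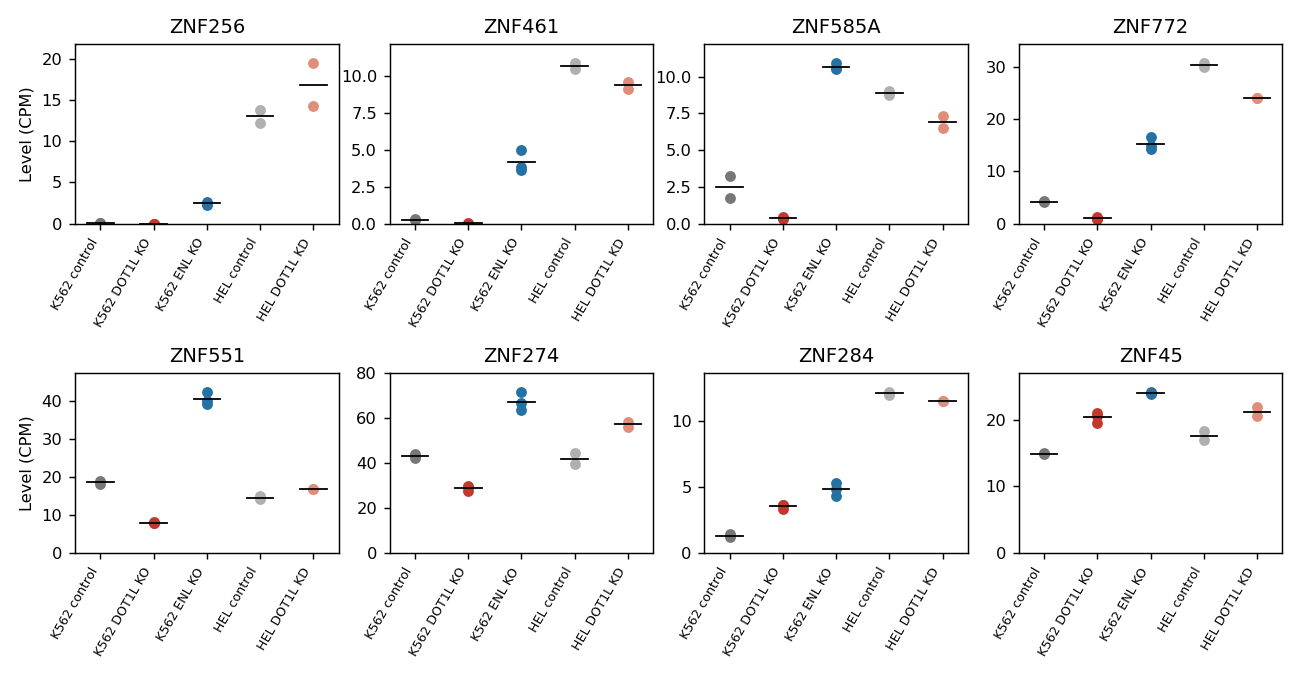
CPM of 8 members in every library; each point is a library and each line a group mean. ZNF461, ZNF585A, ZNF772, ZNF551 and ZNF274 have K562 control between DOT1L KO and ENL KO, and ZNF284 and ZNF45 have both knockouts above control.

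The 8 members of the 43 to 45 Mb cluster that rose in DOT1L KO were ZNF284, ZNF223, ZNF285, ZNF235, ZNF229, ZNF226, ZNF45 and ZNF227. ZNF284 measured 1.16 and 1.42 CPM in control, 3.63, 3.65 and 3.31 CPM in DOT1L KO (log2 fold change 1.45 ± 0.20 (SE), edgeR adjusted p = 3.78e-05) and 5.27, 4.82 and 4.30 CPM in ENL KO (log2 fold change 1.90 ± 0.19 (SE), edgeR adjusted p = 4.07e-06). ZNF45 measured 14.8 and 15.0 CPM in control, 20.6, 21.1 and 19.5 CPM in DOT1L KO (log2 fold change 0.45 ± 0.08 (SE), edgeR adjusted p = 4.69e-04) and 23.9, 24 and 24.2 CPM in ENL KO (log2 fold change 0.69 ± 0.08 (SE), edgeR adjusted p = 2.01e-05). In both genes no control library reached a knockout library. ZNF223 had a log2 fold change of 1.17 in DOT1L KO, which did not pass without control replicate 2 (1.04), and ZNF227, at 0.30, dropped to 0.15 and was lost without that library.

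Outside that cluster, the largest increases in DOT1L KO are given first for members with at least 1 CPM and no overlap between groups. Log2 fold changes were 1.09 in ZNF582, 0.95 in ZNF446 and 0.88 in ZNF583, all at 56 to 59 Mb, and 0.89 in the scattered ZNF780B. The scattered ZNF541, at a lower level, also passed as higher, with a log2 fold change of 2.50. It averaged 0.0934 CPM in control and 0.540 CPM in DOT1L KO. Its summed counts were 4 and 41, a ratio of 6.01 with a counting interval of 2.18 to 23.1. ZNF582 did not pass without control replicate 2 (0.90). ZNF302, with 0 counts in both controls, measured 0.409, 0.608 and 0.568 CPM in DOT1L KO, at least 3.79-fold higher than the level of 3 counts per control library. That level is still a small part of the 27.2 CPM of HEL control.

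Because both knockouts were set against the same 2 control libraries, their changes are not independent, and the knockouts were also compared with each other directly. Of 153 members, 117 were lower in DOT1L KO than in ENL KO and 6 were higher (edgeR, adjusted p under 0.05; median log2 difference -0.91), where 60.2% of all genes passed, 28.3% lower and 31.8% higher. At 36 to 38 Mb 24 of 25 members were lower (median -1.68), at 51 to 54 Mb 35 of 38 (-1.08), at 56 to 59 Mb 37 of 47 (-1.20) and at 43 to 45 Mb 15 of 22 (-0.62). The log2 difference was -1 or less in 72 members, against 3.82% of all genes, and 1 or more in 3, against 15.4%. Every DOT1L KO library lay below every ENL KO library in 117 members, against 29.8% of all genes. Some of the 153 were tested only through the ENL KO libraries, where they were high. The 6 members higher in DOT1L KO were ZNF302, the scattered ZNF780B, ZNF541, ZNF296 and ZNF865, and ZNF446, and 3 were higher without DOT1L KO replicate 1 or without replicate 2. ZNF780B measured 8.69 and 8.04 CPM in control, 14.3, 14.2 and 18.1 CPM in DOT1L KO and 5.41, 7.15 and 7.56 CPM in ENL KO, and of its changes from control only the DOT1L KO one passed. In ZNF226, ZNF235 and ZNF285, 3 of the 43 to 45 Mb members that rose in both knockouts, the direct differences of -0.18, 0.05 and -0.01 did not pass.

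In HEL the knockdown of DOT1L gave smaller changes with no common direction. Of 150 tested members, 35 rose and 26 fell (edgeR, adjusted p under 0.05; median log2 fold change 0.06), against 27.0% higher and 28.0% lower of 12635 genes, 55.0% in all. The split depended on the scaling: 51 rose and 18 fell with upper-quartile scaling, 46 and 23 with library size alone, and 8 and 12 passed with DESeq2. Leaving out a library lowered both counts: 20 rose without knockdown replicate 2 and 22 without control replicate 1, and 17 fell without knockdown replicate 1. Log2 fold changes reached 1 in 5 members and -1 in 1 member, against 3.37% and 2.47% of all genes. Both knockdown libraries lay above both controls in 59 members and below them in 46, against 38.7% and 37.2% of all genes. At 36 to 38 Mb 2 of 24 rose and 7 fell (median -0.26), at 43 to 45 Mb 6 of 22 rose and none fell (0.19), and at 51 to 54 and 56 to 59 Mb the counts were 7 and 8 of 32 and 12 and 9 of 51. At 51 to 54 Mb 3 rose without knockdown replicate 2 or without control replicate 1, and 4 rose and 3 fell without knockdown replicate 1; at 56 to 59 Mb 6 rose without knockdown replicate 2. At 43 to 45 Mb no member fell under any of the scalings or with DESeq2, and the number that rose ranged from 2 to 9; 1 decrease passed an unadjusted p of 0.05 in edgeR.

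The HEL members with the largest changes were mostly of low level. ZNF132, with 0 counts in every K562 library, measured 0.639 and 0.635 CPM in HEL control and 2.07 and 1.63 CPM after knockdown (log2 fold change 1.52 ± 0.39 (SE), edgeR adjusted p = 9.43e-04). ZNF586 measured 17.7 and 16.6 CPM in control and 8.67 and 7.73 CPM after knockdown (log2 fold change -1.06 ± 0.13 (SE), edgeR adjusted p = 3.88e-10). ZNF550 measured 35.1 and 33.8 CPM in control and 23.1 and 23.1 CPM after knockdown (log2 fold change -0.58 ± 0.08 (SE), edgeR adjusted p = 4.15e-08). Groups did not overlap in these 3 genes, and ZNF132 did not pass with DESeq2. ZNF586 and ZNF550 also fell in K562 DOT1L KO, by 0.85 and 0.83 on the log2 scale. Other increases were 1.10 in ZNF528, 0.86 in ZNF541, 0.70 in ZNF529-AS1, which is antisense to ZNF529 and overlaps its exons, 0.61 in ZNF112, 0.60 in ZNF524, 0.58 in ZNF606 and 0.53 in ZNF320. Other decreases were -0.80 in ZNF460, -0.68 in ZNF345, -0.67 in ZNF571, -0.65 in ZNF765, -0.58 in ZNF83 and -0.58 in ZNF805. ZNF528 measured 0.799 and 0.953 CPM and 1.43 and 2.36 CPM, and lost its call without knockdown replicate 2 (0.70).

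**Figure D5:**
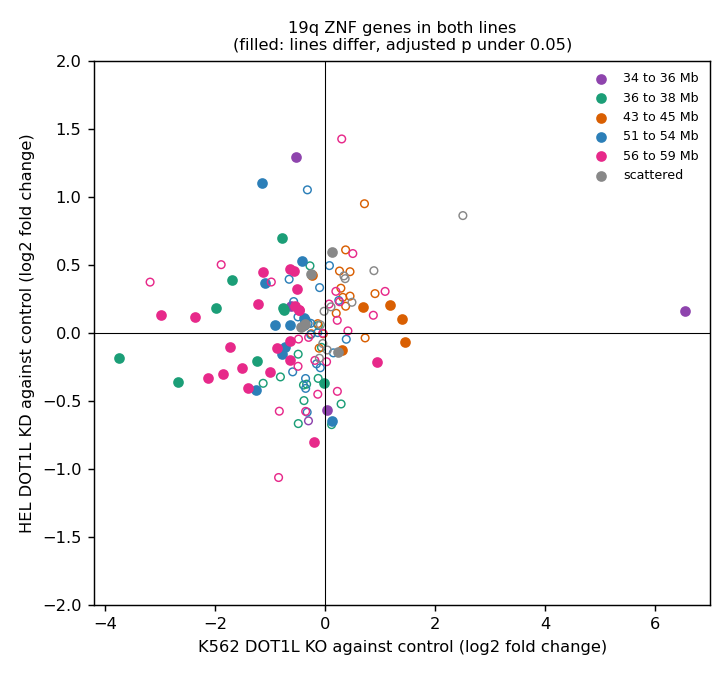
Log2 fold change on DOT1L depletion of the 139 members tested in both lines, K562 knockout on the horizontal axis and HEL knockdown on the vertical axis; filled points differ between lines at an adjusted p under 0.05. The K562 values spread further than the HEL values, and the filled points of the 36 to 38, 51 to 54 and 56 to 59 Mb clusters lie mainly left of 0; the point at the far right is ZNF302, with 0 counts in K562 control.

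Calls common to both lines were counted in the members tested in both. Of the 139 members tested in both, 74 passed in K562 DOT1L KO and 59 in HEL DOT1L KD, and 28 passed in both, which is 37.8% of the K562 calls and 47.5% of the HEL calls. Over all 11644 genes tested in both lines the shares were 58.4% and 53.1%. Of these genes 5906 passed in K562 and 6500 in HEL. Such shares depend on how often genes were called in each line, so their difference was not read as a trait of the members. Of the 28, 6 were higher in both lines, 13 lower in both and 9 moved in opposite directions, beside 970, 1020 and 1462 of the 3452 genes called in both. The 9 were ZNF792, ZNF529-AS1, ZNF320, ZNF525, ZNF416, ZNF530, ZNF134, ZNF274 and ZNF544, all lower in K562 and higher in HEL. Across the 139 members the 2 sets of log2 fold changes correlated with r = 0.14 (Pearson) and rho = 0.18 (Spearman), and across all genes with 0.05 and 0.09; the points share libraries and neighbouring genes, and genes are not independent replicates.

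A joint fit tested the difference between the lines itself. The log2 response differed between HEL and K562 in 58 of 160 members, 46 with a higher value in HEL and 12 with a lower one (edgeR interaction, adjusted p under 0.05), against 19.8% and 19.1% of 15367 genes, 38.9% in all. The difference was 1 or more on the log2 scale in 21 of them and -1 or less in 4, against 4.85% and 7.83% of all genes. At 56 to 59 Mb the counts were 20 and 2 of 54, at 51 to 54 Mb 11 and 1 of 36 and at 36 to 38 Mb 8 and 1 of 25, and at 43 to 45 Mb 1 and 5 of 23. The lower counts were unstable: those 5 became 2 without K562 control replicate 2 or without HEL knockdown replicate 1 and 3 without either HEL control, and the 12 in all became 7 without K562 control replicate 2 or without HEL control replicate 1. Zinc finger genes of 19p gave 27 higher and 5 lower of 76, and 19q genes without a ZNF symbol 129 and 55 of 454, a tilt of the same direction. Cell line, knockout against knockdown and the counting unit all change together here and cannot be told apart. ZNF45, ZNF226 and ZNF480 rose in all 3 comparisons with a control, and no member fell in all 3; the DOT1L KO call of ZNF480 rests on both control libraries, as given above. ZNF480, at 51 to 54 Mb, measured 25.8 and 26.2 CPM in K562 control, 30.1, 31.0 and 31.6 CPM in DOT1L KO and 47.0, 47.6 and 48.8 CPM in ENL KO, and 20.0 and 20.8 CPM in HEL control and 23.7 and 24.4 CPM after knockdown, with no overlap in either line. The HEL calls of ZNF45, ZNF226 and ZNF480 did not pass with DESeq2, at log2 fold changes of 0.26, 0.19 and 0.23.

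Members with a described function were followed as a group. ZNF274 measured 42.4 and 43.8 CPM in K562 control, 29.3, 30.0 and 27.6 CPM in DOT1L KO (log2 fold change -0.57 ± 0.07 (SE), edgeR adjusted p = 2.29e-05) and 71.5, 66.7 and 63.8 CPM in ENL KO (log2 fold change 0.65 ± 0.07 (SE), edgeR adjusted p = 1.07e-05). In HEL it measured 39.4 and 44.4 CPM in control and 58.5 and 56.1 CPM after knockdown (log2 fold change 0.45 ± 0.06 (SE), edgeR adjusted p = 4.38e-08). The direction on DOT1L depletion was thus opposite in the lines, and the difference passed the interaction test (interaction 1.04 ± 0.11 (SE), edgeR adjusted p = 8.44e-08). ZNF304, a KRAB protein tied to silencing of the INK4-ARF locus in colorectal cancer cells, was 8.46 and 7.57 CPM in control, 6.04, 5.64 and 5.73 CPM in DOT1L KO and 16.3, 14.6 and 14.7 CPM in ENL KO, lower and higher than control by -0.47 and 0.92 on the log2 scale. ZNF473, which takes part in histone pre-mRNA processing, was higher in both, at 0.23 and 0.41. ZNF350, a repressor that binds BRCA1, rose in ENL KO from 0.790 and 1.14 to 2.61, 2.73 and 2.80 CPM (log2 fold change 1.49 ± 0.25 (SE), edgeR adjusted p = 3.10e-04), and its DOT1L KO value of -0.57 did not pass. ZNF175 was lower in DOT1L KO (-0.39) and higher in ENL KO (0.42). ZNF146 fell in HEL from 373 and 387 to 296 and 292 CPM (log2 fold change -0.37 ± 0.03 (SE), edgeR adjusted p = 2.23e-14), while in K562 DOT1L KO its value was -0.02 and did not pass. ZNF331, an imprinted gene, was at most 0.326 CPM in any K562 library and was not tested there; it measured 19.1 and 20.7 CPM in HEL control and 19.2 and 17.3 CPM after knockdown. ZNF296 passed against neither control.

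Genes of the silencing machinery that KRAB zinc finger proteins recruit were called less often than genes at large, by counts with no test of the difference. Of 32 listed cofactors tested in K562, 4 were higher and 6 lower in DOT1L KO, and 4 higher and 3 lower in ENL KO; of 31 tested in HEL, 6 were higher and 9 lower. These shares lie below the 51.1%, 41.0% and 55.0% of all genes called in the same comparisons. TRIM28, itself at the end of 19q, averaged 1012 ± 79.9 CPM in K562 control (SD, n = 2), 1035 ± 39.3 in DOT1L KO (n = 3) and 1186 ± 38.8 in ENL KO (n = 3), and rose in ENL KO by 0.23 on the log2 scale (edgeR adjusted p = 0.00742). SETDB1, the H3K9 methyltransferase, averaged 69.5 ± 2.35, 72.1 ± 0.640 and 77.3 ± 2.28 CPM in the same groups, and neither change passed. DNMT3B, a de novo DNA methyltransferase, fell from 167 ± 7.15 to 97.9 ± 2.74 CPM in DOT1L KO (n = 2 and 3), and in HEL rose from 112 ± 1.80 to 237 ± 1.6 CPM after knockdown (n = 2 each). CHD3, of the NuRD complex, rose from 135 ± 8.09 to 221 ± 13.9 CPM in DOT1L KO.

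Members with and without the ETS motif were then set side by side. In ENL KO 31 of 40 tested members with the motif rose (77.5%, median log2 fold change 0.84), against 67 of 91 without it (73.6%, 0.68). In DOT1L KO 17 of 40 with the motif fell (42.5%, median -0.51), against 33 of 91 without it (36.3%, -0.26). Within the 56 to 59 Mb cluster, where it was most frequent, 16 of 22 with and 15 of 20 without it rose in ENL KO. Outside that cluster 5 of 18 with the motif fell in DOT1L KO (27.8%), against 24 of 71 without it (33.8%). In ENL KO 15 of 18 with the motif rose outside the cluster (83.3%), against 52 of 71 without it (73.2%). Over all genes, 28.3% of 888 with the motif and 19% of 9575 without it were higher in ENL KO, and 19.4% and 25.8% were lower in DOT1L KO. These shares are a description of overlapping gene families and carry no test.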

How the data were processed

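RNA-seq counts of 13 samples (12 distinct libraries) were used; the other 61 of the 74 samples were not analysed here. Per the labels, poly(A) RNA was made into strand-marked libraries. The submitters' processing notes name fastp 0.13.1, HISAT2 2.1.0, Bowtie2 2.3.4.1, featureCounts 1.6.1 and deepTools, and the builds hg38 and hg19, without saying which step used which; the coordinates in the count tables matched RefSeq GRCh38 for the 181 of 183 members with a RefSeq entry. The authors deposited whole-number counts per gene, fragments for K562 and reads for HEL. Whether counting used strand is not given in the sources used here, so antisense and overlapping members are uncertain.

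All genes of a table were fitted together with edgeR 4.0.16 (R 4.3.3): filterByExpr (minimum count 10, minimum total 15), TMM scaling, the quasi-likelihood test and Benjamini-Hochberg adjustment over all genes tested, with a threshold of 0.05. Standard errors are the log2 fold change divided by the square root of the F statistic. The 3 K562 groups shared 1 fit, in which the spread of the 2 control libraries is assumed like that of the others; HEL was fitted alone. The difference between lines was an interaction over HEL and K562 control and DOT1L depletion libraries. The biological coefficient of variation was 6.34% in K562 and 1.83% in HEL. A low value was limited by a floor of 3 counts. The code was tested on simulated data.

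Members, clusters, cofactor and marker lists were chosen with earlier results of these data known. Named genes were members past the threshold with at least 1 CPM and no overlap between groups: the 8 largest changes per direction in each of the 3 comparisons with a control and the 4 largest between knockouts, those called the same way in all 3, the 5 highest per kb in each control, and 11 members of known role. Other members named as exceptions or within small counts were chosen after their values were seen, as were the promoter motifs and the filter on mean CPM. Alternatives were DESeq2 1.42.0, upper-quartile and library-size scaling, no filter, a log2 fold change of at least 1, fits of only the groups compared, a replicate block, and leaving out each library.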

Additional observations from a re-analysis of the deposited data

Results flagged for a closer look

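The interaction test in edgeR (adjusted p under 0.05) found a different response to DOT1L depletion in HEL and in K562 for 30 named members. Most named members were chosen for a large change in one of the lines, so their number supports nothing; over all members 58 of 160 passed, 36.3%, against 38.9% of all genes. Each value below is the log2 fold change in HEL minus that in K562. Knockout against knockdown, cell line and counting unit differ together and cannot be told apart. In the 36 to 38 Mb cluster the difference was positive, at 2.32 for ZNF585A, 2.1 for ZNF585B, 1.06 for ZNF420, 3.51 for ZNF461 and 1.50 for ZNF529-AS1. It was negative there at -0.33 for ZNF146. In the 43 to 45 Mb cluster it was negative, at -1.50 for ZNF284, -0.95 for ZNF223, -0.47 for ZNF226 and -0.41 for ZNF227. In the 51 to 54 Mb cluster the difference was positive, at 0.86 for ZNF813, 2.27 for ZNF528, 0.97 for ZNF320, 0.47 for ZNF175 and 1.00 for ZNF160. It was negative there at -0.76 for ZNF765. In the 56 to 59 Mb cluster the difference was positive, at 1.81 for ZNF772, 1.27 for ZNF417, 1.02 for ZNF548, 1.46 for ZNF551, 1.63 for ZNF549, 1.04 for ZNF274 and 0.65 for ZNF304. It was negative there at -1.15 for ZNF446 and -0.59 for ZNF460. Among scattered members the difference was positive, at 0.71 for ZNF580, 0.49 for ZNF579, 0.50 for ZNF524 and 0.44 for ZNF581. It was negative there at -0.36 for ZNF473. The values of ZNF223, ZNF226, ZNF227, ZNF460, ZNF473, ZNF524, ZNF528, ZNF549, ZNF579 and ZNF581 lost the threshold when at least 1 library was left out.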

How the results depend on the processing

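Counts of members past the threshold were 78 for DOT1L KO, 116 for ENL KO and 123 for DOT1L KO against ENL KO in K562, 61 for HEL DOT1L KD and 58 for the difference between lines. Requiring a log2 fold change of at least 1 left 25, 51, 75, 6 and 25. In HEL, DESeq2 called 20 members (8 higher, 12 lower) and the fit without a filter 39 (18 higher, 21 lower); the cause was not tested. The share of the HEL calls that was higher was 57.4% with TMM, 73.9% with upper-quartile scaling, 66.7% with library size and 40.0% with DESeq2. Leaving out each library in turn gave 63 to 76 calls for DOT1L KO, 94 to 115 for ENL KO, 116 to 121 between the knockouts, 41 to 46 in HEL and 49 to 59 for the difference between lines. Every other alternative run stayed within 1.5 times of these counts, including a lower border of 52 Mb for the 51 to 54 Mb cluster. No named member changed direction past a threshold under any alternative run. Over the named members and all alternatives, 2822 values kept direction and side of the threshold, 155 lost the threshold, 46 gained it and 66 that had not passed changed sign.

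Samples share replicate numbers in the labels. All 7 same-numbered pairs of K562 libraries had positive correlations of their deviations (0.0684 to 0.355), against -0.281 to 0.172 for other pairs. Of the 7, 2 were not above 0.1. The 0.172 was between control 2 and ENL KO 3. Control columns 2 and 3 were identical, so that library may carry either number and this pair may be same-numbered. In HEL the correlation was -0.0026 for same-numbered and 0.0026 for other pairs. With 2 libraries per group the deviations within a group mirror each other, so these values are the same number with its sign flipped. The 2 K562 control libraries mirror each other too. With DOT1L KO replicate 1 the correlation was 0.218 for control 1 and -0.218 for control 2. Deviations in the groups of 3 add up to 0, so the other K562 pairs are not independent of the same-numbered ones. The correlations cannot decide whether libraries were paired by number, and the main fits did not treat the number as pairing. With the replicate block the counts were 88 for DOT1L KO, 118 for ENL KO, 127 between the knockouts and 60 in HEL.

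With 2 control libraries per line, 1 of them deposited in 2 columns in K562, the spread of the controls is poorly known. Members under about 1 CPM rest on few counts.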
